A study of Drosophila melanogaster with 24 samples.

Results

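MicroRNA loci are the 260 annotated genes whose symbol begins with mir- on the 6 measured chromosome arms of *Drosophila melanogaster*, out of 17684 genes placed on these arms in a Release 6 gene table. The table holds 262 such genes, and 2 copies of *mir-10404* that it assigns to X and Y together were left out. The genes numbered 56 on 2L, 55 on 2R, 31 on 3L, 58 on 3R, 2 on 4 and 58 on X. Of these, 168 overlapped the span of a protein-coding gene (inside) and 92 did not (outside). An inside position says nothing of strand or exon, which the table does not give, so a hairpin may lie antisense to the gene around it.

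A microRNA is cut from a short RNA hairpin and, loaded into an Argonaute protein, represses mRNAs that pair with its seed, the bases near its 5′ end. Hairpins arise from their own long transcripts, from several hairpins strung on 1 transcript, or from introns of protein-coding genes. In the fly nervous system microRNAs are known to limit the number of sensory precursors, to keep neurons alive and to tune growth of dividing cells. Condensin I is a ring-shaped complex that compacts chromosomes for mitosis, and Cap-G is the subunit found in condensin I.

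Binding of Cap-G was measured by Targeted DamID, in which a protein fused to the Dam methylase marks nearby GATC sites in the cells where a GAL4 driver is active. The fusion carried isoform Cap-G-PF with Dam at its C-terminus and was expressed at a low level behind an mCherry reading frame, in brains of L3 larvae, while control animals expressed Dam alone. Drivers were *wor-GAL4* for neural stem cells (NSCs), *elav-GAL4* for neurons including immature ones (elav neurons) and *nSyb-GAL4* for mature neurons (nSyb neurons). All animals also carried tub-GAL80ts, which blocks GAL4 at 18°C, and were moved to 29°C for 24 h before DNA was extracted. Each driver had 2 Cap-G-Dam and 2 Dam-only samples of 30 pooled brains, 12 samples in all. The driver alone defines the cell type here, since no expression values were analysed.

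The values are the authors' averaged log2 Cap-G-Dam/Dam ratio, 1 track per driver over 373710 GATC fragments with a median length of 196 bp. Read depth is not given in the tracks, and 1 track per driver leaves no spread between replicates, so no value below has an error or a test. A negative ratio may reflect little Cap-G or much methylation by Dam alone, which cannot be told apart. The value of a locus is the mean ratio over the hairpin and 1 kb on each side, each fragment weighted by the base pairs it shares with this window. Its percentile is its rank among 66931 bins of 2 kb tiled over the same arms in the same track, and cell types were compared by percentile because the tracks had been normalised separately.

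The hairpins are short for this assay. Their median annotated length was 92 bp, with a range from 50 to 174 bp, and 201 of the 260 lay within 1 GATC fragment. Windows met a median of 7 fragments, from 1 to 22. Hairpins within 10 kb of each other can share fragments and do not count as separate observations: merging them left 198 clusters, of which 171 held 1 hairpin and 27 held the other 89. Single values depend on the window. At the 67 loci singled out here, 32 of 201 values (67 loci in 3 tracks) had the other sign with 5 kb on each side.

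Most microRNA loci had ratios close to 0. Their median was -0.03 in NSCs, -0.01 in elav and -0.02 in nSyb neurons, beside -0.01, 0.00 and 0.00 for the bins. Ratios above 0 were found at 96, 124 and 116 of the 260 loci in NSCs, elav neurons and nSyb neurons (36.9%, 47.7% and 44.6%), shares near those of the bins (38.5%, 46.3% and 47.0%). The extremes were wide, from -1.49 to 0.67 in NSCs, from -2.17 to 1.0 in elav and from -1.83 to 0.83 in nSyb neurons. More loci than bins lay at both ends in NSCs and in elav neurons. In NSCs 16.5% of the loci were under percentile 10 and 16.2% over percentile 90, against 10% of bins at each end by construction. Elav neurons had 12.7% and 13.5%. In nSyb neurons 8.85% were under percentile 10 and 14.6% over percentile 90. In each track 8 of the loci over percentile 90 came from the single *mir-309* cluster.

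Loci outside protein-coding genes had the lower median ratio in NSCs and the higher one in nSyb neurons. Inside loci had medians of -0.02 in NSCs, 0.00 in elav and -0.06 in nSyb neurons. Outside loci had medians of -0.06, -0.03 and 0.04. Bins divided by the same rule had inside medians of -0.01, 0.01 and 0.00 and outside medians of -0.01, -0.02 and 0.00. The difference between inside and outside loci was 0.04 in NSCs, 0.03 in elav and -0.10 in nSyb neurons. With 1 value per cluster the elav difference was 0.16 and the nSyb difference was -0.04. In NSCs 22.8% of outside loci stood under percentile 10, where 9.51% of outside bins did, and in nSyb neurons 6.52% did, against 7.46% of outside bins. At the upper end, 15.2% of outside loci in NSCs and 20.7% in nSyb neurons exceeded percentile 90, against 5.10% and 7.23% of outside bins. Elav neurons had 21.7% of outside loci under percentile 10 and 15.2% over percentile 90, against 11.1% and 4.47% of outside bins. In each track 8 of the outside loci over percentile 90 belong to the single *mir-309* cluster. By cluster, 6, 7 and 9 of 54 outside clusters in NSCs, elav neurons and nSyb neurons (11.1%, 13.0% and 16.7%) were over percentile 90, and 15, 15 and 4 (27.8%, 27.8% and 7.41%) were under percentile 10.

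**Figure D1:**
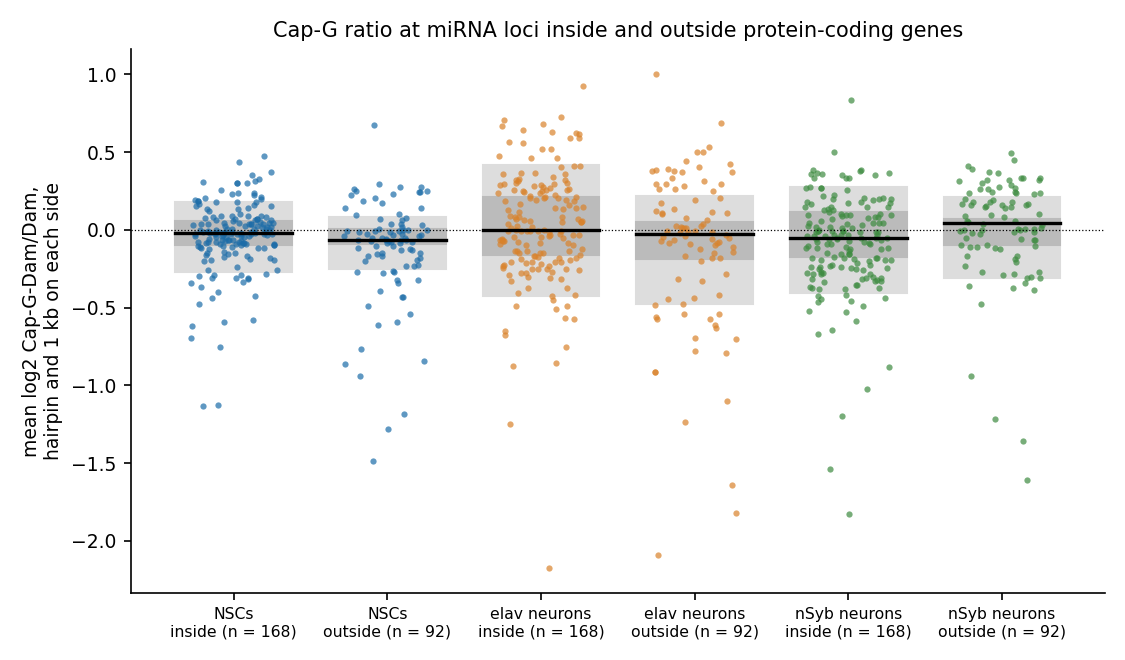
Mean log2 Cap-G-Dam/Dam over each hairpin and 1 kb on each side (vertical axis) for the 168 inside and 92 outside microRNA loci in NSCs, elav neurons and nSyb neurons; each point is a locus, black lines are medians, and the dark and light grey boxes hold the middle 50% and 80% of 2 kb bins of the same kind. The 6 medians lie between -0.06 and 0.04, and the points reach down to -2.17 in elav neurons.

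The neighbours *mir-13b-1*, *mir-13a* and *mir-2c* had the lowest ratios in NSCs and were among the lowest in both neuronal tracks. These hairpins belong to the miR-2 family, which represses the proapoptotic genes *reaper*, *grim* and *sickle*. They lie on 3R from 15417408 to 15417845 within lncRNA:CR45911, outside any protein-coding gene and 131 to 467 bp from *Atx2*. At *mir-2c* the mean was -1.49 in NSCs, -2.09 in elav and -1.61 in nSyb neurons. None of the 8 fragments in its window was above 0 in any track. All 3 hairpins stood at a percentile of 0.3 or less, after rounding, in each cell type. The unbroken stretch of negative fragments around *mir-2c* spanned 9.17 kb in NSCs, 6.32 kb in elav neurons and 8.48 kb in nSyb neurons, and its lowest fragment, at -3.70, was in elav neurons. Other members of the family, in other places, did not share this depth. The hairpins *mir-2a-2*, *mir-2a-1* and *mir-2b-2*, inside *spi*, which encodes an EGF receptor ligand, had values from -0.15 to -0.06 in NSCs, from 0.06 to 0.17 in elav and from 0.07 to 0.09 in nSyb neurons.

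*mir-1000* was the lowest single locus in elav and nSyb neurons. It is a neuronal microRNA known to repress the vesicular glutamate transporter. The hairpin lies on 3R from 25588859 to 25588958 inside *msi* (musashi), which encodes an RNA-binding protein of asymmetric cell division. Its value was -1.13 in NSCs, -2.17 in elav and -1.83 in nSyb neurons. The mean over the whole span of *msi* was only -0.17, -0.28 and -0.15, so the low values were local to part of the gene. Around the hairpin the negative stretch covered 9.66 kb in NSCs, 30.1 kb in elav neurons and 7.85 kb in nSyb neurons.

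Further loci were low in all 3 tracks. Those under percentile 10 in each numbered 8 of 260 (3.08%), a share near that of the bins (2.85%). Besides the 4 above they were *mir-967*, *mir-2282*, *mir-4949* and *mir-954*. *mir-2282*, inside *sty* (sprouty, an inhibitor of receptor tyrosine kinase signalling), had values of -0.59, -0.87 and -1.54 in NSCs, elav neurons and nSyb neurons. *mir-967*, inside *bun* (bunched, a TSC-22 family gene of growth), had -0.42, -0.86 and -1.02. *mir-4978*, inside *mam* (mastermind, the coactivator of Notch), was at -0.26 and -0.42 in NSCs and elav neurons and at -1.20 in nSyb neurons. These inside loci were thus lowest in nSyb neurons. By contrast, *mir-9377* inside *Tis11*, an mRNA decay factor gene, was at -1.13 in NSCs and -1.25 in elav neurons but at 0.05 in nSyb neurons. *mir-9381* in lncRNA:mimi was at -0.84, -1.10 and -0.10.

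The highest ratio in NSCs and in elav neurons was at *mir-375*. In vertebrates this microRNA is known from pancreatic islet and other endocrine cells. The fly hairpin lies on 2L from 857542 to 857632 in lncRNA:CR45345, 903 bp from *CG13949*. Its window had 0.67 in NSCs, 1.0 in elav and 0.50 in nSyb neurons, and all 15 fragments were above 0 in each track. The fragments under the hairpin itself were lower, at 0.14, 0.31 and 0.16. The peak of signal lay beside it: at an FDR of 0.01% a bound region ran from 857751 to 860903 in NSCs (mean 0.68), and in elav neurons regions from 856100 to 857456 and from 857751 to 859651 stood on either side (mean 1.0 each). In nSyb neurons no region met the window at this level.

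The cluster of *mir-309* on 2R was high throughout. Its 8 hairpins, *mir-309*, *mir-3*, *mir-286*, *mir-4*, *mir-5*, *mir-6-1*, *mir-6-2* and *mir-6-3*, are transcribed early in the embryo and promote decay of maternal mRNAs. All 8 were above percentile 90 in every track, with values from 0.22 to 0.29 in NSCs, from 0.37 to 0.42 in elav and from 0.32 to 0.37 in nSyb neurons. Because their windows overlap, these 8 are 1 stretch of chromatin. At *mir-309* itself, which is on 2R from 19661706 to 19661774 in lncRNA:CR44504, 13, 11 and 12 of 14 fragments were above 0 in NSCs, elav neurons and nSyb neurons. The other loci above percentile 90 in all 3 tracks were *mir-375*, *mir-4972*, *mir-2495*, *mir-9382*, *mir-4943*, *mir-986*, *mir-4913* and *mir-4941*, which brings the number to 16 (6.15%, against 2.44% of bins).

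Among the high inside loci, *mir-9382* in *MRP*, which encodes an ABC transporter, had 0.44 in NSCs, 0.63 in elav and 0.83 in nSyb neurons, the highest of that track. The span of *MRP* averaged 0.01, 0.07 and 0.05. *mir-2495* in *qtc* (quick-to-court) had 0.48, 0.67 and 0.33, and its host 0.10, 0.15 and -0.06. With 5 kb on each side *mir-2495* had 0.02, 0.07 and -0.12. *mir-4972* in *for*, which encodes a cGMP-dependent protein kinase, reached 0.92 in elav neurons from 0.20 in NSCs and 0.36 in nSyb neurons. *mir-986* in the cytochrome P450 gene *Cyp4e2* had 0.30, 0.40 and 0.50 and its host 0.27, 0.34 and 0.57. *mir-4909* in *CG1941* had 0.35, 0.11 and 0.08 and its host 0.44, 0.23 and 0.18. Window and host values were thus alike at *mir-986* and *mir-4909* and not at *mir-9382* or *mir-2495*. The host value includes fragments of the window, so it must lie near the window where the host is short. Host lengths were not compared, so this contrast may follow gene length.

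**Figure D2:**
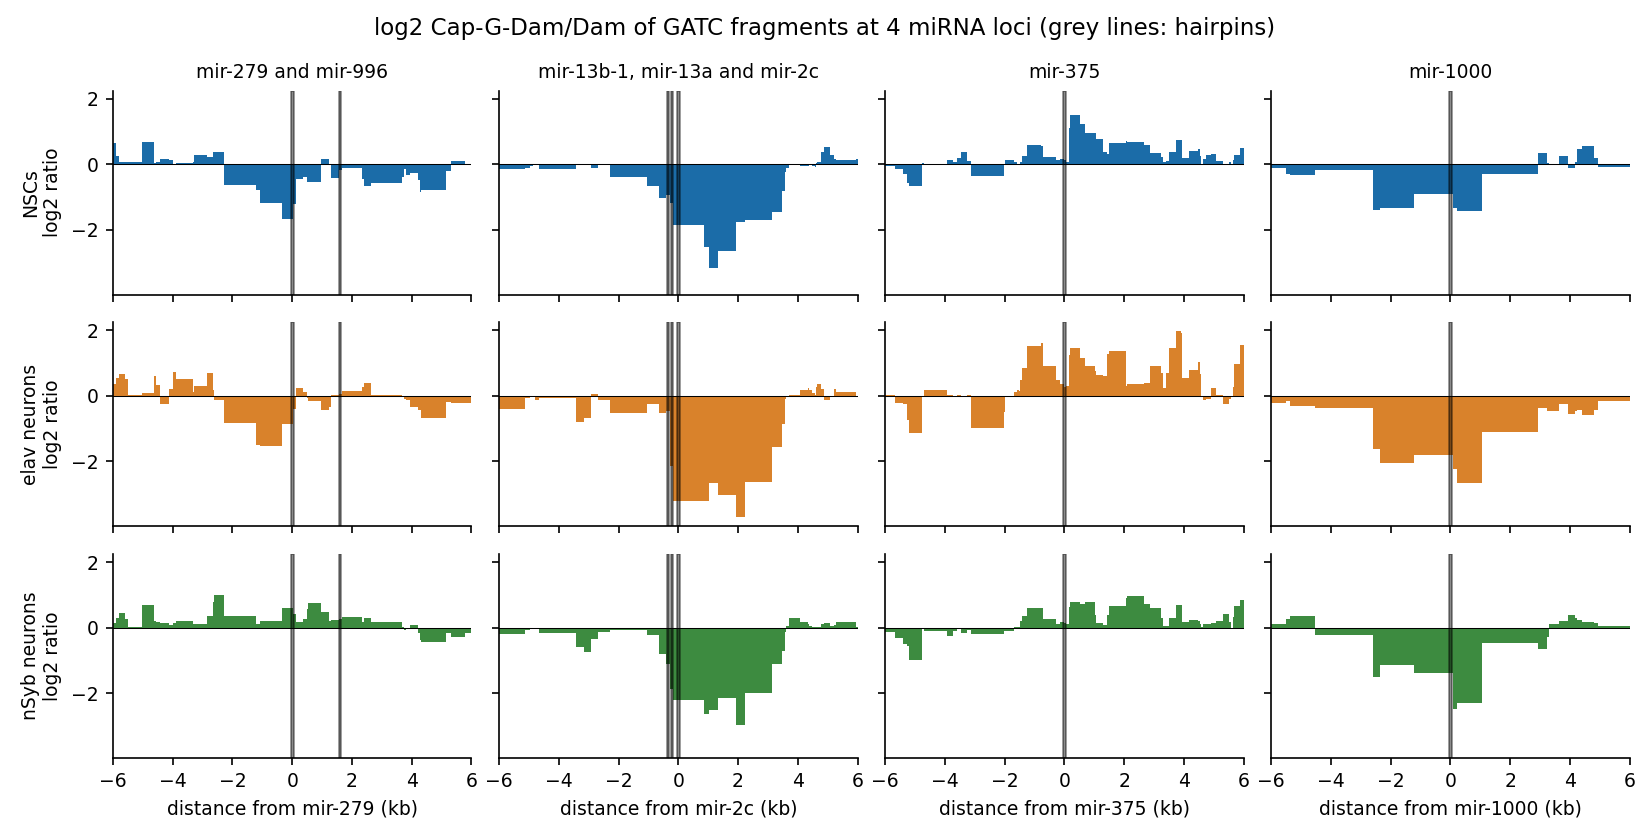
log2 Cap-G-Dam/Dam of each GATC fragment (bars, as wide as the fragment) within 6 kb of *mir-279*, *mir-2c*, *mir-375* and *mir-1000* (columns; horizontal axis, distance in kb) in NSCs, elav neurons and nSyb neurons (rows); grey lines mark hairpins. The fragment under the middle of *mir-279* has -1.66 in NSCs and 0.61 in nSyb neurons, whereas the fragments under *mir-2c* and *mir-1000* are negative and those under *mir-375* positive in all 3; farther out both signs occur at each locus.

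The ratio at *mir-279* and *mir-996* went from among the lowest in NSCs to among the highest in nSyb neurons. These microRNAs share a seed and are known to prevent extra CO2-sensing neurons from forming. The hairpins lie on 3R from 29215585 to 29217280 in lncRNA:CR31044, with *eEF1gamma* the nearest protein-coding gene. *mir-279* had -0.94 in NSCs, -0.69 in elav and 0.41 in nSyb neurons, at percentiles 0.7, 4.6 and 96.9. Of the 8 fragments in its window, 1, 2 and 8 were above 0. *mir-996* had -0.27, 0.01 and 0.39, at percentiles 9.7, 56.5 and 96.4, with 2, 6 and 10 of 10 fragments above 0. The hairpins thus differed in elav neurons, where *mir-279* was low and *mir-996* near the middle. In nSyb neurons an unbroken stretch of 39 positive fragments covered 10.1 kb around both. No region was called in this window at an FDR of 0.01% or 1%.

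Several other outside loci had the same course. On arm 4, *mir-9385*, 5098 bp from *dati*, had -0.86 in NSCs, -0.54 in elav and 0.37 in nSyb neurons, with 2, 3 and 9 of 10 fragments above 0. Its percentile was 94.6 points higher in nSyb neurons than in NSCs, the widest difference once the hairpins of a cluster were averaged. With 5 kb on each side its nSyb value was -0.0142, beside -0.54 in NSCs. *mir-9388*, 450 bp from *Mes2*, had -0.77, -1.23 and 0.16, and none of its 4 fragments was above 0 in NSCs or elav neurons while 4 were in nSyb neurons. *mir-184*, needed in the fly for egg production and early embryos, had -0.23, -0.78 and 0.18. *mir-282* had -0.17, 0.01 and 0.28. At *mir-8*, which promotes growth through insulin signalling, the values in NSCs and elav neurons were -0.61 and -0.92 and the nSyb value stood at percentile 47.7, near the middle of the bins. *mir-ban* (bantam), which promotes growth and represses the proapoptotic gene *hid*, had -0.23, -0.08 and 0.19, and in nSyb neurons a bound region from 643085 to 645149 (mean 0.59) reached its window.

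Loci with this course were more frequent outside protein-coding genes. A locus was counted as higher or lower when its percentile differed by 40 points or more. From NSCs to nSyb neurons 45 of 260 loci (17.3%) were higher, against 10.5% of bins, and 28 (10.8%) were lower, against 9.52% of bins. Among outside loci 28 of 92 (30.4%) were higher, against 12.2% of outside bins, and 6 (6.52%) were lower, against 7.21%. Among inside loci 17 of 168 (10.1%) were higher, against 9.75% of inside bins, and 22 (13.1%) were lower, against 10.7%. The 28 outside loci came from 12 clusters, and by cluster 11 of 54 outside clusters (20.4%) and 11 of 142 inside clusters (7.75%) were higher. Leaving out arm X, which holds 58 of the 260 loci, lowered the 45 to 27, and the share of bins without X is not given. The X loci among the 45 came from the large *mir-972* cluster and from other sites. Those other X loci were *mir-980*, *mir-983-1*, *mir-983-2*, *mir-984*, *mir-2491*, *mir-2492* and *mir-9377*. The X loci among the 45 were fewer than the fall from 45 to 27, and the cause of the remainder was not tested. A stricter count, a change of sign with at least 0.1 on each side of 0, was chosen after the values had been seen and gave 16 loci higher (6.15%, against 3.90% of bins) and 6 lower (2.31%, against 1.99%) in nSyb neurons.

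Between NSCs and elav neurons 31 loci (11.9%) were higher, against 8.17% of bins, and 12 (4.62%) were lower, against 6.23%. With 5 kb on each side these became 16 (6.15%) and 6 (2.31%), against 6.08% and 3.64% of bins widened alike, so the higher share was then at the background. On values scaled by the spread of each track, with a limit of 1.5, they became 69 (26.5%) and 23 (8.85%), against 15.4% and 8.21% of bins. Between elav and nSyb neurons 16 (6.15%) were higher and 24 (9.23%) lower, against 8.36% of bins in each direction. Spearman's rho over the 260 loci was 0.68 for NSCs with elav neurons, 0.63 for the neuronal pair and 0.41 for NSCs with nSyb neurons. The bins gave 0.60, 0.52 and 0.42. These correlations are across loci, which share fragments within clusters and are not independent.

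**Figure D3:**
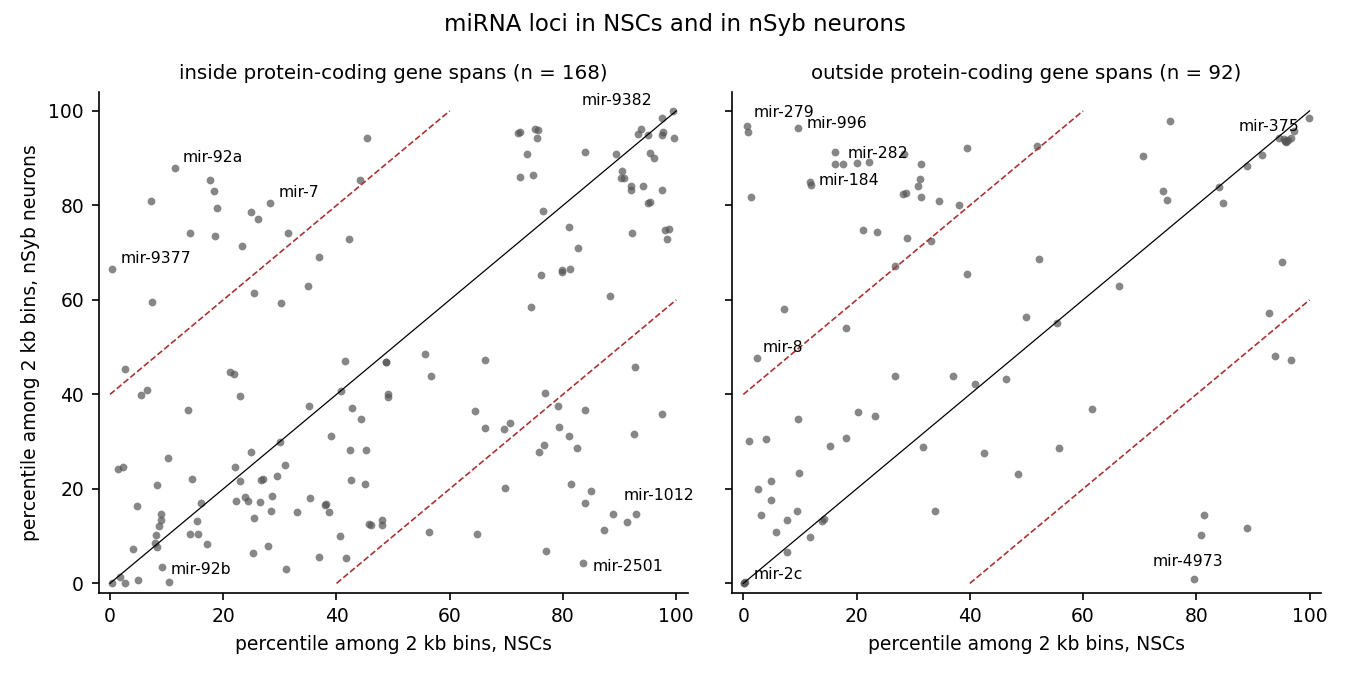
Percentile of each microRNA locus among 2 kb bins in NSCs (horizontal axis) and in nSyb neurons (vertical axis), for inside (left, n = 168) and outside (right, n = 92) loci; the solid line marks equal percentiles and dashed lines a difference of 40 points. Above the upper dashed line lie 28 outside and 17 inside loci, and *mir-279* stands at percentile 0.7 in NSCs and 96.9 in nSyb neurons.

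Loci with lower percentiles in nSyb neurons than in NSCs were near the background share both inside and outside genes, as given above. *mir-2501* in *Nulp1* had 0.09 in NSCs, -0.58 in elav and -0.59 in nSyb neurons, and its percentile was 79.2 points lower in nSyb neurons than in NSCs. With 5 kb on each side it had -0.05, 0.03 and -0.12. *mir-1012*, a mirtron of the lysosomal enzyme receptor gene *Lerp*, had 0.19 in NSCs, 0.33 in elav and -0.29 in nSyb neurons. *mir-4940* in *nwk* (nervous wreck, which limits growth of synapses) had 0.17, -0.03 and -0.32. Outside genes, *mir-4973* had 0.06, -0.42 and -0.94, and *mir-9376* had 0.14, -0.28 and -0.34. *mir-965*, inside the chromatin remodeller gene *kis*, was at 0.12 in NSCs and at -0.31 and -0.35 in elav and nSyb neurons. By percentile, elav neurons were nearer to nSyb neurons than to NSCs at most of these loci, while *mir-1012* was high in both NSCs and elav neurons. By ratio, elav neurons were nearer to NSCs at *mir-4940* and *mir-4973* as well.

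A further set stood out in elav neurons. *mir-4951* within lncRNA:Hsromega, the heat-shock noncoding RNA of nuclear omega speckles, had -0.15 in NSCs, 0.44 in elav and -0.10 in nSyb neurons. *mir-1009*, a mirtron of *CG3860*, had -0.04, 0.52 and -0.28. *mir-31b* within *rdgA*, a diacylglycerol kinase gene of phototransduction, had -0.09, 0.29 and -0.30. *mir-2281* in *cv-c*, a RhoGAP gene, had 0.04, 0.72 and 0.21, with all 14 fragments above 0 in elav neurons. *mir-2492* in the kinase gene *Drak* was also low in NSCs, at -0.34, but was above 0 in both elav and nSyb neurons, at 0.29 and 0.15. *mir-4908* in *CG15539* had 0.07, 0.71 and 0.10. Its host, whose mean includes fragments of this window, had 0.07, 0.71 and 0.11. *mir-4975*, within *CG45092* and *chk*, had 0.06, 0.64 and -0.05, and *mir-4980*, within the calcineurin subunit gene *CanB2*, had -0.12, 0.27 and -0.01. *mir-9371* in *Glut4EF* had -0.10, 0.28 and 0.13. Like *mir-2492* it was high in both neuronal tracks, at percentiles 84.7 and 78.7 in elav and nSyb neurons. *mir-1010*, a mirtron of *SKIP*, had the reverse order, with 0.02 in NSCs, -0.42 in elav and -0.08 in nSyb neurons.

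Known nervous system microRNAs did not form a uniform group. The 22 loci of this list had a median of -0.08 in NSCs, -0.05 in elav and 0.02 in nSyb neurons, against all-locus medians of -0.03, -0.01 and -0.02. Above 0 were 7, 7 and 11 of the 22 (31.8%, 31.8% and 50%), against 38.5%, 46.3% and 47.0% of bins. *mir-124*, abundant in neurons of flies and vertebrates, lies on 2L from 17566370 to 17566469 in lncRNA:CR45919 and had -0.18 in NSCs, -0.57 in elav and -0.11 in nSyb neurons, with none of 7 fragments above 0 in any of them. *mir-9a*, which restrains sensory organ precursors by repressing *senseless*, had 0.03, 0.50 and 0.17. *mir-bft*, the name in the table for *mir-263a*, which protects bristle cells from apoptosis, had 0.04, 0.68 and 0.45, with all 5 fragments above 0 in elav and nSyb neurons. *mir-263b*, of the same seed family and inside *meru*, had 0.04, -0.07 and -0.12. *mir-7*, which acts in photoreceptor differentiation and lies inside *HnRNP-K*, had -0.08 in NSCs and 0.14 in nSyb neurons, with elav neurons between them at percentile 48.9. *mir-276a* and *mir-276b* had -0.49 and -0.27 in NSCs, -0.47 and -0.70 in elav neurons and -0.10 and -0.17 in nSyb neurons.

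The let-7 complex had higher percentiles in both neuronal tracks than in NSCs. Its hairpins *mir-100*, *mir-let7* and *mir-125* lie on 2L from 18471434 to 18472424 in lncRNA:let7C, and they time late larval and adult transitions. *mir-100* had -0.08 in NSCs, 0.26 in elav and 0.27 in nSyb neurons. *mir-let7* had -0.03, 0.29 and 0.29. *mir-125* had 0.02, 0.31 and 0.26. Under the hairpins the order differed, since the fragments of *mir-let7* had 0.47, -0.08 and 0.24, unlike the mean over its window.

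Loci known from growth, apoptosis and metabolism were low in NSCs. Their 20 loci had a median of -0.13 in NSCs, 0.02 in elav and -0.04 in nSyb neurons. Above 0 were 1, 10 and 9 of the 20 (5%, 50% and 45%), against 38.5%, 46.3% and 47.0% of bins. The elav and nSyb shares above 0 were thus near the background. Under percentile 10 were 7, 7 and 3 of the 20 (35%, 35% and 15%), against 10% of bins in each track. The low end thus held as many of these loci in elav neurons as in NSCs. The list holds the 3 hairpins next to *Atx2* and the 3 inside *spi*, so its members are not separate sites. *mir-275* and *mir-305*, neighbours studied in growth and gut function, had -0.54 and -0.43 in NSCs, -0.54 and -0.48 in elav neurons and -0.29 and -0.24 in nSyb neurons. *mir-11*, inside *E2f1* and known to limit E2F1-driven apoptosis, had -0.09, -0.21 and 0.02, above its host at -0.45, -0.42 and -0.06. *mir-278*, which acts in insulin sensitivity, had 0.00, 0.05 and -0.06. At *mir-14*, a suppressor of cell death, the whole window lay in 1 fragment with -0.02, -0.04 and -0.02, so its value describes that long fragment.

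The 3 muscle loci were negative in all 3 tracks of the brain. *mir-1* had -0.05 in NSCs, -0.31 in elav and -0.27 in nSyb neurons. *mir-133* had -0.59, -0.91 and -0.21, with none of 6 fragments above 0. *mir-92b*, which acts on *Mef2* in muscle, had -0.28, -0.09 and -0.65. Its cluster partner *mir-92a* had -0.24, -0.51 and 0.22. Both lie inside *jigr1*, a gene coexpressed with them in neural stem cells, and the span of *jigr1* had -0.23, -0.28 and 0.05. In nSyb neurons the hairpins were thus on opposite sides of 0, at percentiles 87.9 and 3.4.

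In the Hox complexes, *mir-iab-4* and *mir-iab-8*, which repress *Ubx* and *abd-A*, are read from opposite strands of the same hairpin and cannot be separated by DamID. Their shared window on 3R from 16856275 to 16856342 had -0.01 in each of the 3 tracks and met 2 fragments. *mir-10*, near *Dfd*, had -0.23 in NSCs, 0.08 in elav and -0.38 in nSyb neurons. *mir-993* had 0.07, -0.17 and -0.37.

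Young and fast-evolving clusters differed from each other. The 7 loci of the *mir-310* cluster on 2R had medians of -0.12 in NSCs, 0.10 in elav and 0.23 in nSyb neurons, and 0, 6 and 7 of them were above 0. *mir-310*, whose products act at the neuromuscular synapse, had -0.17, -0.01 and 0.23. The 9 listed loci of the *mir-972* cluster on X, rich in testis microRNAs, had medians of -0.06, -0.04 and 0.15, with all 9 above 0 in nSyb neurons. In the *mir-982* cluster on X, 5 loci had medians of -0.15, 0.21 and 0.14, but *mir-303*, which lies outside *CG3626*, had -0.20, -0.08 and -0.31 where *mir-984* inside this gene had -0.15, 0.21 and 0.20. The 6 loci of the *mir-959* cluster, all inside the cell adhesion gene *DIP-theta*, went the other way, with medians of -0.01, -0.17 and -0.33 and none above 0 in elav or nSyb neurons. The span of *DIP-theta* had -0.03, -0.13 and -0.21.

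Mirtrons are hairpins that are whole short introns and are made by splicing without Drosha. The 14 listed mirtrons had a median of 0.15 in NSCs, 0.29 in elav and 0.00 in nSyb neurons, which lay at median percentiles 89.8, 85.9 and 52.8. Above 0 were 11, 11 and 7 of 14 (78.6%, 78.6% and 50%), against 41.7%, 51.4% and 46.6% of inside bins. Above percentile 90 were 7, 3 and 1 (50%, 21.4% and 7.14%), against 12.4%, 12.7% and 11.4% of inside bins. *mir-1013* in *wts* (warts, a kinase of the Hippo pathway) had 0.37, 0.36 and 0.10. *mir-1006* in *VhaSFD*, a subunit gene of the proton pump, had 0.33, 0.29 and 0.10. *mir-1003* in *CG6695* was an exception, with -0.26, -0.30 and -0.14. With 5 kb on each side *mir-1006* had -0.12 and *mir-1012* -0.15 in NSCs, so neither was high over the wider window.

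**Figure D4:**
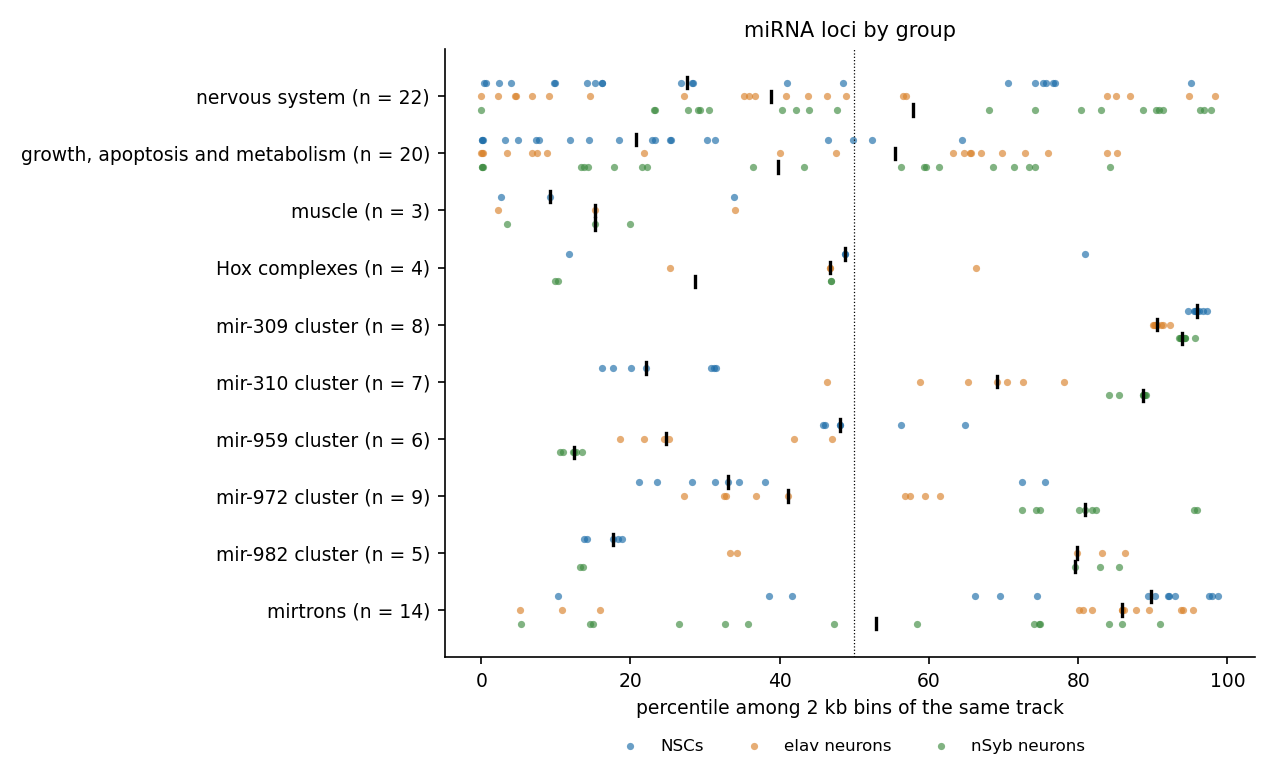
Percentile among 2 kb bins (horizontal axis) of the loci in 10 groups (rows, with the number of loci) in NSCs, elav neurons and nSyb neurons; each point is a locus, black ticks are medians and the dotted line is percentile 50. All points of the *mir-309* cluster exceed percentile 90, while the mirtron medians are 89.8, 85.9 and 52.8.

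Inside loci followed their host genes in part. Over the 168 inside loci Spearman's rho between the window and the mean over the host span was 0.67 in NSCs, 0.66 in elav and 0.66 in nSyb neurons, a description across loci whose windows form part of the host value. The median difference of window minus host was 0.01, 0.02 and 0.01. Differences of 0.25 or more in either direction occurred at 26, 39 and 32 loci (15.5%, 23.2% and 19.0%), against 9.71%, 25.5% and 17.0% of inside bins set against their own gene. Outside loci lay a median of 1284.5 bp from the nearest protein-coding gene, 38 of 92 lay within 1 kb of one, and 44 were in an annotated noncoding RNA gene.

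The ratio around the hairpins was averaged in steps of 500 bp, with 1 value per cluster. For outside loci the elav medians of the steps from 750 bp before to 2750 bp past the middle of the hairpin, in coordinate order, varied between -0.14 and -0.07, with -0.08 in the step at -250 bp, and the outermost steps had -0.03 and 0.04. The NSC medians were -0.07 at -250 bp and -0.05 at 250 bp, against -0.01 in both outermost steps. Some NSC steps farther out were also low, with -0.06 at 2750 bp and at 6250 bp, so low medians were not confined to the hairpin. The nSyb medians at -250 bp, at 250 bp and in both outermost steps lay between -0.03 and 0.01. For inside loci the medians at 250 bp were -0.02 in NSCs, 0.04 in elav and -0.05 in nSyb neurons, and the nSyb medians of the outermost steps were 0.00 and -0.005.

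**Figure D5:**
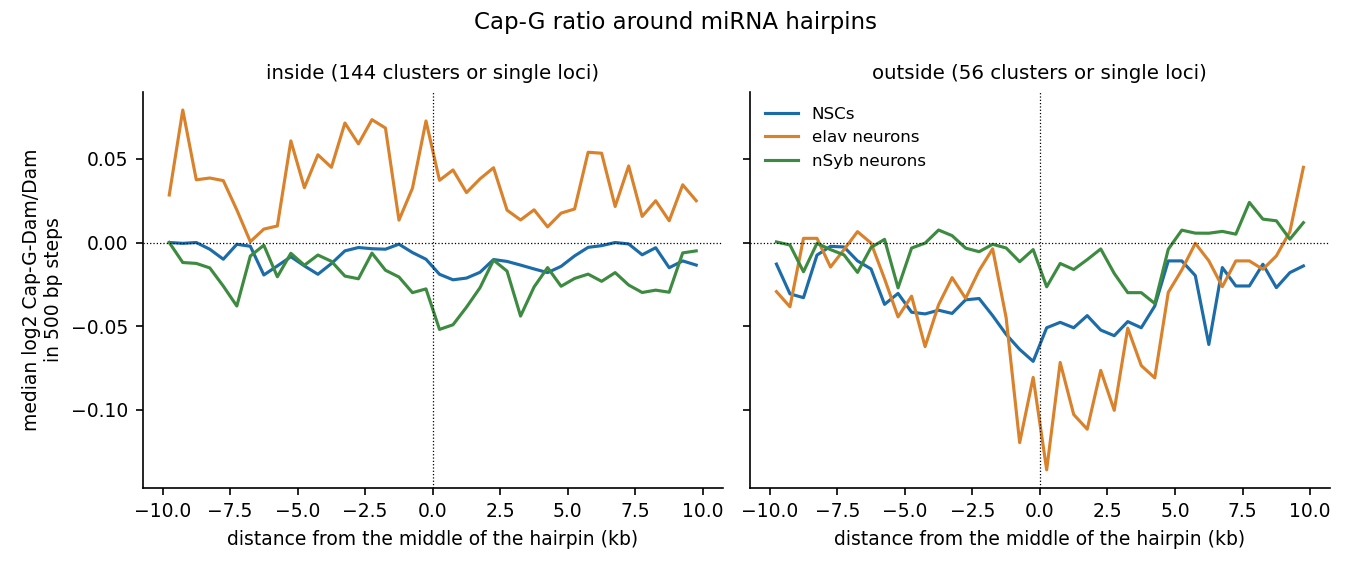
Median log2 Cap-G-Dam/Dam (vertical axis) in 500 bp steps up to 10 kb from the middle of the hairpin (horizontal axis), over 144 inside and 56 outside clusters or single loci (2 clusters count in both), in NSCs, elav neurons and nSyb neurons. The outside elav line is lowest, at -0.14, 250 bp from the middle of the hairpin but stays low over several kb, while the inside elav line stays above 0.

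Bound regions met few microRNA windows. Regions were runs of at least 2 fragments above a high quantile of the track with an FDR of 0.01%, where the expected number of runs assumes independent fragments. They met 4 of 260 windows (1.54%) in NSCs, 11 (4.23%) in elav and 6 (2.31%) in nSyb neurons, against 2.57%, 3.92% and 3.16% of bins, shares near the background. In NSCs these were *mir-375*, *mir-9379*, *mir-955* and *mir-4918*. In elav neurons they were *mir-375*, *mir-9379*, *mir-283*, *mir-304*, *mir-12*, *mir-4979*, *mir-33*, *mir-2281*, *mir-9373*, *mir-995* and *mir-1001*. In nSyb neurons they were *mir-986*, *mir-ban*, *mir-955*, *mir-316*, *mir-4918* and *mir-1001*. Only *mir-9379* in NSCs, *mir-283*, *mir-4979*, *mir-2281* and *mir-1001* in elav neurons and *mir-986* and *mir-1001* in nSyb neurons had the region over the hairpin. At an FDR of 1% the counts were 31 (11.9%), 34 (13.1%) and 33 (12.7%), against 8.57%, 10% and 9.98% of bins.

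Windows that met a region were not always high. The region in elav neurons near *mir-995*, inside the cell cycle kinase gene *Cdk2*, ran from 20736768 to 20739283 on 3R with a mean of 0.64, yet the window had -0.33 and the fragments under the hairpin -1.0. *mir-4918* in nSyb neurons had -0.21 with a region at its edge. The *Gmap* cluster on X showed a graded case: a region from 15506383 to 15508474 (mean 0.81) covered *mir-283* in elav neurons, and the windows of *mir-283*, *mir-304* and *mir-12* had 0.68, 0.46 and 0.25 with growing distance from it. In NSCs the same 3 had 0.02, 0.03 and -0.03. *mir-1001*, inside *tau*, which encodes a microtubule-binding protein of axons, had -0.02 in NSCs and 0.34 and 0.33 in elav and nSyb neurons, with 5, 11 and 12 of 12 fragments above 0.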

How the data were processed

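DamID reads (50 bp, single-end) were aligned by the authors to BDGP6 with Bowtie2 and assigned to GATC fragments, and they deposited 1 averaged log2 track per driver, Cap-G-Dam over Dam alone. The sources used here give neither tool versions nor the way of averaging. RNA-seq libraries (12) were not analysed here. Hairpins, hosts and neighbours came from a Release 6 RefSeq gene table without strand or exons, and no sequence was used.

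The region threshold was the track quantile 0.80, 0.85, 0.90, 0.95 or 0.99 and at least 0, with expected runs by formula. The caller was tested only on shuffled tracks with planted runs, where fragments are independent. That test cannot check the FDR where neighbouring fragments are correlated. Members and 10 lists (97 loci, all matched) were chosen with earlier results of these data known. Named loci were the 5 highest and 5 lowest clusters per track, the 5 largest percentile rises and falls per pair of tracks, and up to 4 members of each list chosen for a known role. Other loci named (those called or changed, partners in a cluster, and further list members) were chosen after their values were seen. Alternatives were other windows, weights, fragments, arms, FDR, cluster merging and scaling (Python 3.11.15, numpy 2.4.6, pandas 2.3.3, scipy 1.17.1, matplotlib 3.10.9).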

Additional observations from a re-analysis of the deposited data

How the results depend on the processing

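No paired analysis was possible because only 1 averaged track per driver was used. Values are given in the order NSCs, elav neurons, nSyb neurons, and the cause of a difference was not tested unless the setting itself gives it. Loci called bound numbered 1, 4 and 2 with the overlapping fragments only, 21, 32 and 21 with 5 kb on each side, 31, 34 and 33 at an FDR of 1%, and 43, 47 and 43 at an FDR of 5% (added after seeing the data). Without arm 3R elav neurons had 7, and without arm 3L nSyb neurons had 3. Of these settings only the FDR of 1% has a share of bins, given above. A wider window or a looser FDR meets more regions at any locus. Regions covered 1.72, 3.04 and 2.42 Mb at an FDR of 0.01% and 7.04, 8.81 and 8.93 Mb at 5%. Without shares of bins, the counts with other windows or at 5% are not a result about microRNA loci. The median difference of inside minus outside loci in elav neurons was 0.12 with 5 kb on each side and 0.16 with 1 value per cluster, which gave -0.0387 in nSyb neurons. Loci past the limit from NSCs to elav neurons numbered 16 higher and 6 lower with 5 kb on each side, 20 higher by cluster, and 69 higher and 23 lower on scaled values (26.5% and 8.85%, against 15.4% and 8.21% of bins). From NSCs to nSyb neurons they numbered 23 higher by cluster, 27 higher without arm X and 43 lower on scaled values (16.5%, against 13.5% of bins). From elav to nSyb neurons they numbered 13 lower with 5 kb on each side (5%, against 7.05% of bins). They numbered 10 higher by cluster, 10 higher without arm X and 15 lower without arm 3R. For counts by cluster or with an arm left out, the share of bins is not given. A sign change of at least 0.1 on each side, also added, gave 8 higher and 3 lower, 16 and 6, and 6 and 8 for these 3 pairs, where bins gave 2.93% and 1.34%, 3.90% and 1.99%, and 3.93% and 4.21%. Of the 67 loci singled out, those at or beyond percentile 10 or 90 that took the other sign with 5 kb on each side were *mir-1006* (-0.12) and *mir-1012* (-0.15) in NSCs, *mir-2501* in elav neurons (0.0263), and *mir-2495* (-0.12) and *mir-9385* (-0.0142) in nSyb neurons. With the overlapping fragments only, *mir-979* in nSyb neurons had -0.007. Of the summary values under all settings 172 stayed close to the reported value and 35 did not. Of the single-locus values 527 stayed within 0.05, 469 moved further and 6 were those above; with 5 kb on each side 164 of 201 moved, with overlapping fragments only 140 and with the unweighted median 138. Over all 260 loci, 147 of 780 values had the other sign with 5 kb on each side. Read depth is unknown.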
